A study of Mus musculus with 4 samples.

Results

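The aminoacyl-tRNA synthetases are the enzymes that load each amino acid onto its transfer RNA. Their genes were taken from the array by the symbols its annotation carries: 20 cytosolic enzymes and 16 mitochondrial enzymes, whose symbols end in ars2. These 36 genes, of 24287 gene symbols on the array, had 46 probes. For 9 genes with several probes the brightest stood for the gene, and the other 27 had 1 probe. All 36 were well above background on all 4 arrays by the scanner software's flag, against 62.5% of all gene symbols.

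Expression was measured in progenitors sorted from adult mouse bone marrow, to find genes regulated by SFRP5, a secreted antagonist of Wnt signalling. The 4 groups were CLP-enriched cells of SFRP5-transgenic mice (SFRP5 CLP), the same sort from their wild-type littermates (WT CLP), LSK cells of SFRP5-transgenic mice (SFRP5 LSK) and LSK cells of wild-type littermates (WT LSK). LSK cells are lineage-negative, high in c-kit and positive for Sca-1, and hold stem cells and multipotent progenitors, whereas the CLP sort is lineage-negative, low in c-kit and Sca-1 and positive for IL7Rα, and is enriched for common lymphoid progenitors. Each group was 1 single-colour array, and neither the promoter that drives the transgene nor the sex and number of the mice behind an array is stated in the labels. No difference has a replicate check, precision is limited by the number of arrays, and "higher" and "lower" describe these 4 arrays. Each array enters 1 comparison between genotypes and 1 between sorts, so a genotype and a sort comparison can share an array.

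Protein synthesis in the cytosol and in mitochondria uses separate sets of transfer RNAs, and for most amino acids a separate nuclear gene encodes the synthetase of each compartment. Gars and Kars each serve both compartments from 1 gene, and the mitochondrial glutamine transfer RNA is charged indirectly, by Ears2 and an amidotransferase. Several cytosolic enzymes sit with scaffold proteins in the multisynthetase complex, and in mammalian cells short of amino acids the transcription factor ATF4 raises many cytosolic synthetase genes through an element shared with asparagine synthetase and other stress genes.

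Promoters were examined for that element because it is the best known regulatory sequence of the cytosolic class. RefSeq promoters (GRCm38.p6, 250 bases before to 50 after each start site) were found for 27 of the 36 genes, 13 cytosolic and 14 mitochondrial. The element was searched as TGATGNAA on both strands, and it matched in 5 of 13 cytosolic promoters (38.5%), in 0 of 14 mitochondrial promoters and in 4.06% of 27025 promoters of all genes. The match nearest the start site of each of the 5 genes is shown in a stretch of 30 bases on the gene's strand, in capitals, because matches were found in the cytosolic class alone among these promoters. A match is a description of the letters, not a measured binding site. In Yars the element runs on the gene's own strand, and in the other 4 genes it runs on the opposite strand, so its reverse complement is in capitals.
Aars (chr8:111033840-111033869, plus strand): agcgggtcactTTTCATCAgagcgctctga
Gars (chr6:55037960-55037989, plus strand): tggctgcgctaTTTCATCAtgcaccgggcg
Iars (chr13:49682126-49682155, plus strand): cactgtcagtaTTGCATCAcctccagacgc
Tars (chr15:11399655-11399684, minus strand): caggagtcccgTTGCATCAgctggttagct
Yars (chr4:129189895-129189924, plus strand): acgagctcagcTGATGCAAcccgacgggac

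Other motifs were searched in the same promoters, and none of their matches in these genes overlapped that element or each other. The E-box CACGTG, which Myc-family factors bind, was in 4 of 13 cytosolic promoters (Aars, Farsb, Iars and Tars, 30.8%), in 1 of 14 mitochondrial promoters (Ears2, 7.14%) and in 7.24% of all promoters. The NRF1 element, searched on both strands, was in 3 cytosolic promoters (Farsb, Kars and Tars, 23.1%), in 2 mitochondrial promoters (Iars2 and Mars2, 14.3%) and in 4.78% of all promoters.

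A signal is the log2 value of a probe minus the 75th percentile of its array, and a difference is that of 2 such values, so that 1.0 stands for 2-fold. Between 65.3% and 70.1% of the probes on an array were well above background. Of the gate genes, Kit was lower in CLP than in LSK (log2 difference -1.71 in SFRP5 and -2.33 in WT). Il7r was higher (2.24 and 3.03 in the same order), so both differed as gated. Flt3, a listed sort marker outside the gate described above, was the lowest of its list, at -2.78 in SFRP5 and -2.71 in WT. The single Sfrp5 probe differed by -0.08 between the genotypes in LSK and by 0.02 in CLP, and whether it detects the transgene was not tested. Xist was well above background on the SFRP5 arrays only, and 4 Y-linked genes (Uty, Kdm5d, Eif2s3y and Ddx3y) had lower signals in SFRP5 than in WT in both sorts, so sex composition and genotype cannot be told apart in these arrays.

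The cytosolic class was higher in CLP than in LSK in both genotypes. In SFRP5 mice 18 of 20 cytosolic genes had a positive difference (51.5% of all genes), with a median of 0.61, and 6 were at least 2-fold higher, against 11.5% of 15714 genes measured there. In WT mice 20 of 20 were positive (50.6% of all genes), with a median of 1.12, and 10 were at least 2-fold higher, against 17.8% of 16018 genes measured. The median over all genes measured was 0.02 in each genotype, and over genes whose brightest array was at or above the 75th percentile it was 0.11 in SFRP5 and 0.32 in WT. No cytosolic gene was at least 2-fold lower in CLP in either genotype, where 11.0% of all genes were so in SFRP5 and 14.3% in WT. Higher signal in CLP in both genotypes was found for 18 cytosolic genes, against 36.1% of the 15183 genes above background on all arrays.

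**Figure D1:**
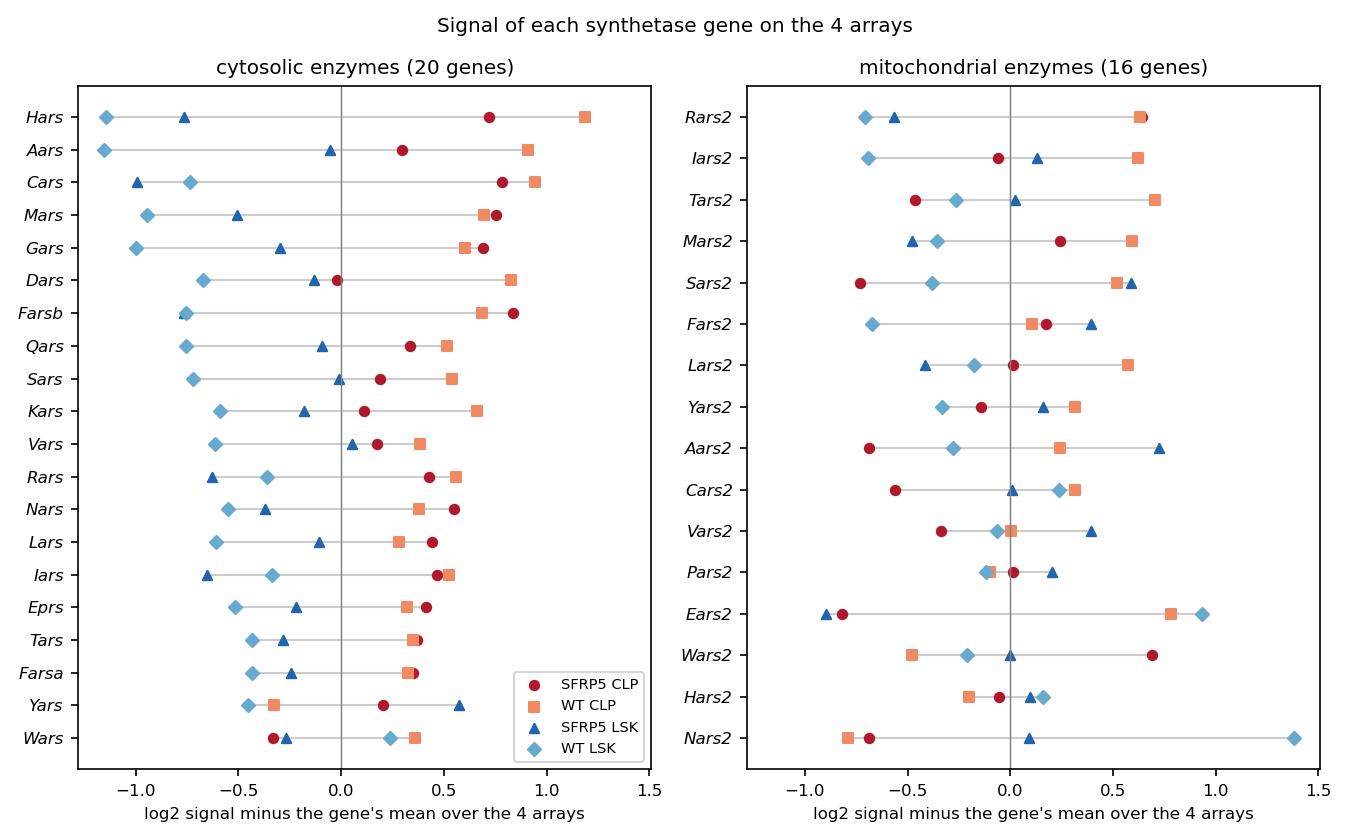
Signal of each of the 36 genes on the 4 arrays, as the log2 signal minus the gene's mean over the arrays (horizontal axis), with 1 row per gene, ordered by the difference between sorts in WT, and 1 point per array. In most cytosolic rows both CLP points lie right of both LSK points, whereas in the mitochondrial rows the order of the points differs from gene to gene.

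The 4 cytosolic genes at least 2-fold higher in CLP in both genotypes were Hars, Cars, Farsb and Mars, against 7.01% of all genes, and these passed it under each alternative scaling too. Hars, the histidyl enzyme, stood at 3.04 in SFRP5 CLP and 3.51 in WT CLP, against 1.56 in SFRP5 LSK and 1.18 in WT LSK, so it was 2.80-fold higher in CLP in SFRP5 and 5.0-fold higher in WT. Both CLP arrays lay above both LSK arrays. Cars, the cysteinyl enzyme, stood at 1.66 and 1.82 in SFRP5 CLP and WT CLP, against -0.12 and 0.14 in SFRP5 LSK and WT LSK, which was 3.43-fold in SFRP5 and 3.21-fold in WT. Its genotype values lay close together within each sort. Farsb, the beta subunit of the phenylalanyl enzyme, had 1.86 in SFRP5 CLP and 1.71 in WT CLP, against 0.26 in SFRP5 LSK and 0.27 in WT LSK, which was 3.04-fold in SFRP5 and 2.72-fold in WT. Mars, the methionyl enzyme of the multisynthetase complex, had 0.94 in SFRP5 CLP and 0.88 in WT CLP, against -0.32 in SFRP5 LSK and -0.76 in WT LSK.

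The other enzymes at least 2-fold higher in CLP passed that size in 1 genotype. Aars, the alanyl enzyme, stood at 1.72 in SFRP5 CLP and 2.33 in WT CLP, against 1.37 in SFRP5 LSK and 0.27 in WT LSK. Its sort difference was 0.35 in SFRP5 and 2.06 in WT, and the WT LSK array was the low one. Dars, the aspartyl enzyme, gave 0.98 and 1.83 in SFRP5 CLP and WT CLP, against 0.87 and 0.33 in SFRP5 LSK and WT LSK, with sort differences of 0.11 in SFRP5 and 1.5 in WT. Gars, the glycyl enzyme of both compartments, gave 5.37 in SFRP5 CLP and 5.28 in WT CLP, against 4.38 in SFRP5 LSK and 3.68 in WT LSK, a difference of 0.98 in SFRP5 and 1.60 in WT. Kars, the lysyl enzyme of both compartments, gave 3.88 in SFRP5 CLP and 4.43 in WT CLP, against 3.59 in SFRP5 LSK and 3.18 in WT LSK. For Aars, Dars and Kars the difference in SFRP5 was 0.35 or less.

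Qars, the glutaminyl enzyme, stood at 2.40 in SFRP5 CLP and 2.58 in WT CLP, against 1.97 in SFRP5 LSK and 1.31 in WT LSK. Sars, the seryl enzyme, stood at 2.23 and 2.58 in SFRP5 CLP and WT CLP, against 2.03 and 1.32 in SFRP5 LSK and WT LSK. In both, the CLP arrays lay above the LSK arrays and the sort difference was larger in WT, 1.27 for Qars and 1.26 for Sars, than in SFRP5, 0.43 for Qars and 0.20 for Sars. Iars, the isoleucyl enzyme, had 1.46 in SFRP5 CLP and 1.52 in WT CLP, against 0.34 in SFRP5 LSK and 0.66 in WT LSK. Rars, the arginyl enzyme, had 1.94 in SFRP5 CLP and 2.07 in WT CLP, against 0.88 in SFRP5 LSK and 1.15 in WT LSK. These 2 genes passed 2-fold in SFRP5 (1.13 for Iars and 1.06 for Rars) and not in WT (0.86 for Iars and 0.93 for Rars), a gap smaller than those above. The 2-fold size was lost with the authors' Signal values for Kars (0.83), Qars (0.85), Sars (0.85), Iars (0.94) and Rars (0.87). For Kars, Qars, Sars and Rars it was also lost with quantile normalization and with cyclic loess.

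Another 7 cytosolic genes stayed within 2-fold in every comparison: Eprs, Farsa, Lars, Nars, Tars, Vars and Wars. Eprs, Lars, Nars and Tars, for glutamate with proline, leucine, asparagine and threonine, were higher in CLP by 0.55 (Lars) to 0.91 (Nars) in SFRP5 and by 0.79 (Tars) to 0.93 (Nars) in WT. Vars, the valyl enzyme, came closest to 2-fold, with a sort difference of 0.12 in SFRP5 and of just under 1.0 in WT. Farsa, the alpha subunit that pairs with Farsb, differed by 0.59 in SFRP5 and 0.76 in WT, less than Farsb, but its further probes gave -0.34 and 0.22 in SFRP5 and 1.02 and -0.14 in WT. Wars, the tryptophanyl enzyme, which interferon is known to induce, showed nearly no sort difference (-0.06 in SFRP5 and 0.12 in WT), and its sign turned in all 4 comparisons under some setting or probe. Yars, the tyrosyl enzyme, was the dimmest cytosolic signal against its own array, at -3.30 in SFRP5 CLP and -3.83 in WT CLP, against -2.93 in SFRP5 LSK and -3.96 in WT LSK, and it differed between the sorts by -0.37 in SFRP5 and 0.13 in WT. The sign in WT turned under some settings.

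The mitochondrial class did not share one direction between the sorts. In SFRP5 mice 5 of 16 mitochondrial genes were higher in CLP, with a median of -0.21. There, 1 passed 2-fold upward (11.5% of all genes) and 2 passed it downward (11.0%). In WT mice 12 of 16 were higher, with a median of 0.58. There, 2 passed 2-fold upward (17.8%) and 1 passed it downward (14.3%). Only 3 (Lars2, Mars2 and Rars2) were higher in CLP in both genotypes, against 36.1% of all genes above background on all arrays. Another 9 were higher in CLP in WT and lower in SFRP5. That combination was found in 2 cytosolic genes, Wars and Yars, and in 15.1% of all genes. Among the 9, the WT difference was small for Pars2 (0.02), Vars2 (0.07) and Cars2 (0.08), and each turned sign under some setting. The further probe of Vars2 gave the reverse order, 0.22 in SFRP5 and -0.86 in WT. That of Iars2 was positive in both genotypes. The cytosolic median exceeded the mitochondrial one by 0.82 in SFRP5 and by 0.54 in WT. Over the alternative settings the gap was from 0.71 to 0.87 in SFRP5 and from 0.10 to 0.64 in WT, so in WT it depended on how the arrays were scaled.

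**Figure D2:**
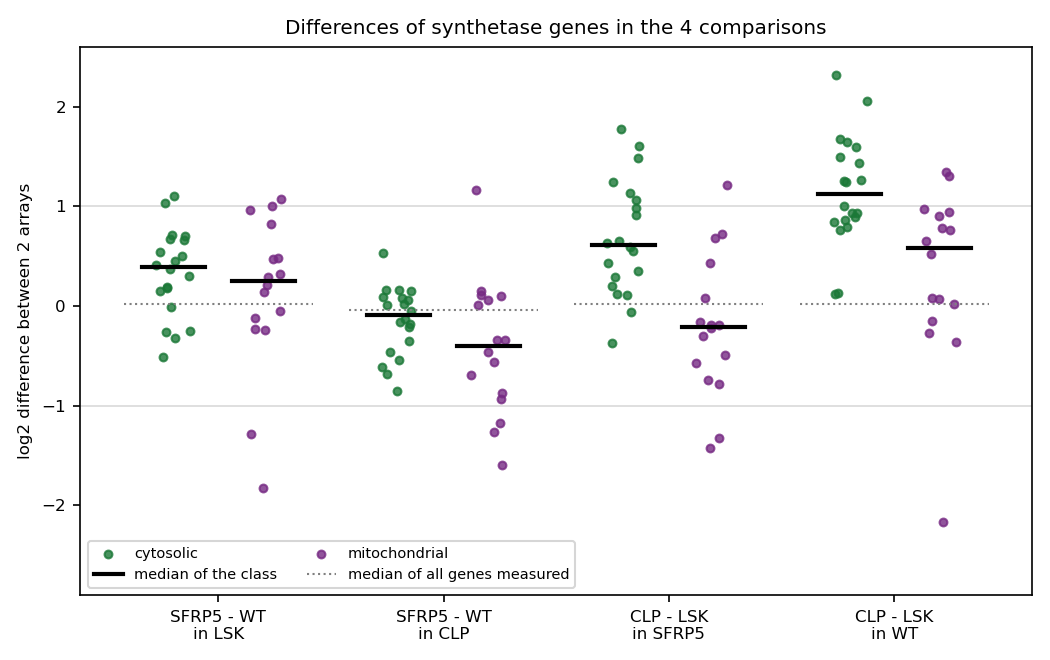
Log2 difference between 2 arrays (vertical axis) for every cytosolic and mitochondrial gene in the 4 comparisons, with the class median as a black bar, the median of all genes measured as a dotted line and 2-fold as grey lines. The cytosolic medians of 0.61 in SFRP5 and 1.12 in WT between the sorts lie above the mitochondrial medians of -0.21 and 0.58.

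Rars2, the mitochondrial arginyl enzyme, was the 1 mitochondrial gene at least 2-fold higher in CLP in both genotypes. It stood at -0.32 in SFRP5 CLP and -0.33 in WT CLP, against -1.53 in SFRP5 LSK and -1.67 in WT LSK, differences of 1.22 and 1.35 in the same genotype order. It was under 2-fold in SFRP5 with normexp (0.88) and in WT with the authors' Signal values (0.93). Nars2, the mitochondrial asparaginyl enzyme, stood at -3.43 in SFRP5 CLP and -3.53 in WT CLP, against -2.65 in SFRP5 LSK and -1.36 in WT LSK. It was lower in CLP in both genotypes, 1.72-fold in SFRP5 and 4.49-fold in WT, with the WT LSK array well above the other 3. With normexp the WT difference was -0.90, under 2-fold. Hars2, the mitochondrial histidyl enzyme, was the other gene lower in CLP in both, with differences of -0.16 in SFRP5 and -0.36 in WT.

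Iars2, the mitochondrial isoleucyl enzyme, stood at 0.52 in SFRP5 CLP and 1.20 in WT CLP, against 0.71 in SFRP5 LSK and -0.11 in WT LSK, which was higher in CLP by 1.31 in WT and lower by a difference of -0.19 in SFRP5. Aars2, the mitochondrial alanyl enzyme, stood at -1.70 in SFRP5 CLP and -0.77 in WT CLP, against -0.29 in SFRP5 LSK and -1.29 in WT LSK, with sort differences of -1.42 in SFRP5 and 0.52 in WT. Sars2, the mitochondrial seryl enzyme, stood at 0.04 in SFRP5 CLP and 1.29 in WT CLP, against 1.36 in SFRP5 LSK and 0.39 in WT LSK, with sort differences of -1.32 in SFRP5 and 0.90 in WT. In these 3 genes the sort difference had opposite signs in the genotypes with the probes used, but the further probe of Iars2 gave 0.21 in SFRP5 and 0.80 in WT. Tars2, the mitochondrial threonyl enzyme, showed the same, at 0.38 in SFRP5 CLP and 1.55 in WT CLP, against 0.87 in SFRP5 LSK and 0.58 in WT LSK. Mars2, the mitochondrial methionyl enzyme, had -2.48 in SFRP5 CLP and -2.13 in WT CLP, against -3.20 in SFRP5 LSK and -3.08 in WT LSK, below 2-fold in each genotype (0.72 in SFRP5 and 0.94 in WT).

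**Figure D3:**
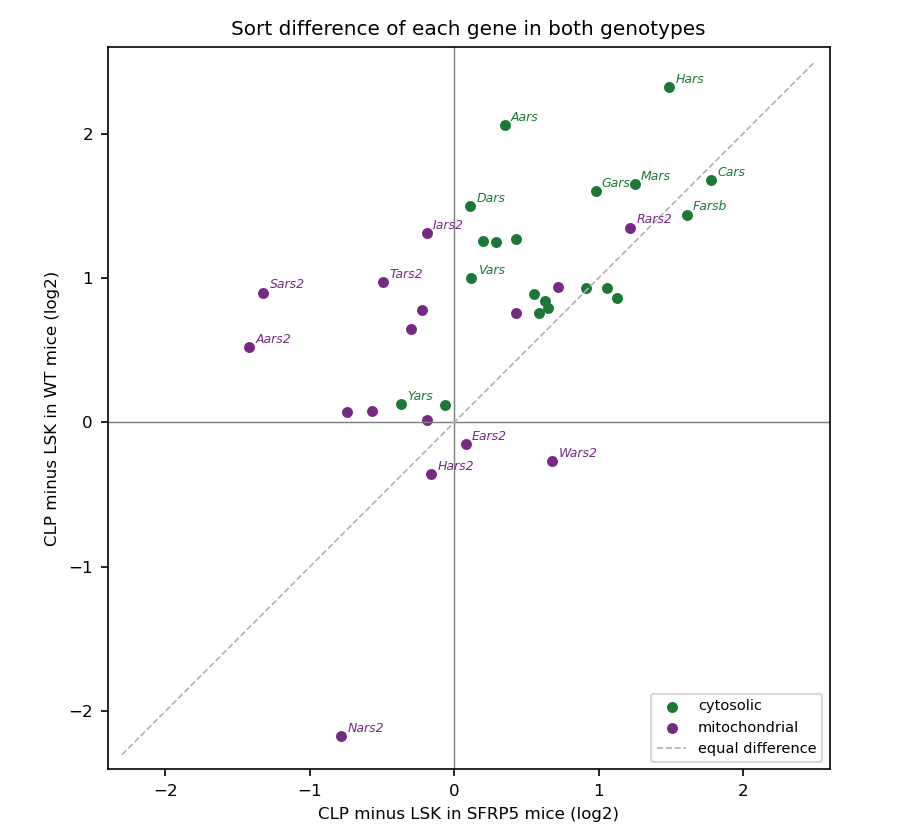
Difference between CLP and LSK of each gene in SFRP5 mice (horizontal axis) and in WT mice (vertical axis), both log2, with the dashed line marking equal differences and crowded points left without a name. Of the cytosolic points 18 of 20 lie in the upper right quadrant, whereas 9 of 16 mitochondrial points lie in the upper left one, higher in CLP in WT and lower in SFRP5. Among those 9, Pars2, Vars2 and Cars2 lie close to the horizontal line of no difference in WT.

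Enzymes of the same amino acid were set side by side in 17 pairs, with Eprs entered for both glutamate and proline and Fars2 against both subunits of its cytosolic counterpart. The sort difference was more positive for the cytosolic than for the mitochondrial enzyme in 14 pairs in SFRP5 and in 12 in WT, and in 11 pairs in both. The median gap was 0.86 in SFRP5 and 0.66 in WT. These pair values were computed with the scaling used only. In WT the gap between the class medians was 0.10 with quantile normalization and 0.16 with cyclic loess. With quantile normalization Lars (0.36) lay below Lars2 (0.69) in WT, the reverse of their order with the scaling used. The pair counts in WT thus depend on the scaling. Histidine showed a wide gap in both genotypes. Hars was at 1.49 and Hars2 at -0.16 in SFRP5, and Hars at 2.32 and Hars2 at -0.36 in WT. Asparagine had a wide gap too, of 1.7 in SFRP5 and 3.1 in WT, where Nars differed by 0.93 and Nars2 by -2.17. The Nars2 probe was dim in CLP, at -3.43 in SFRP5 and -3.53 in WT. With normexp its WT difference was -0.90, so the order of asparagine and histidine depended on the setting. The widest gap in SFRP5 was that of cysteine (2.35). For cysteine, Cars differed by 1.78 and Cars2 by -0.57 in SFRP5, and by 1.68 and 0.08 in WT. For arginine and tyrosine the mitochondrial enzyme had the more positive difference in both genotypes. Rars2 lay above Rars, and Yars2 (-0.30 in SFRP5 and 0.65 in WT) above Yars (-0.37 in SFRP5 and 0.13 in WT). In SFRP5 these gaps were small, at -0.16 for arginine and -0.08 for tyrosine, and the Yars probe was dim.

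**Figure D4:**
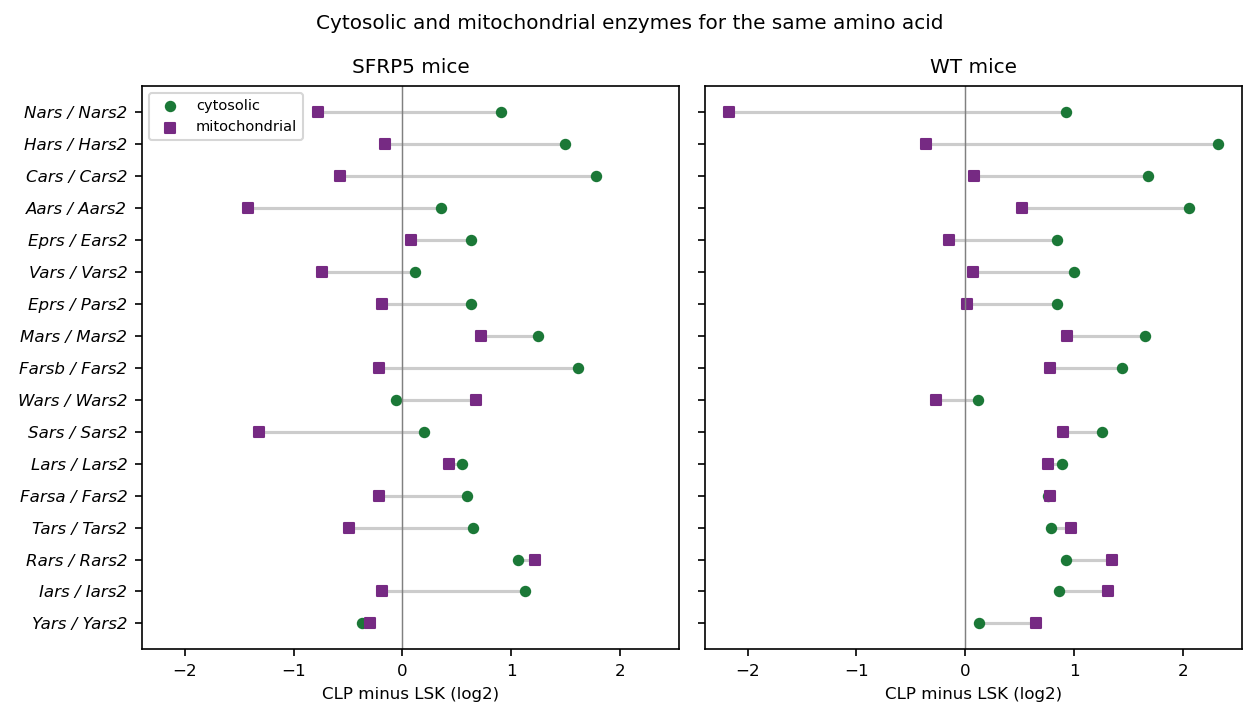
Difference between CLP and LSK (log2, horizontal axis) of the cytosolic and the mitochondrial enzyme of each of 17 pairs, in SFRP5 mice (left) and WT mice (right), joined by a line and ordered by the gap in WT. With the scaling used, the cytosolic point lies right of the mitochondrial one in 14 pairs in SFRP5 and 12 pairs in WT.

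Within the cytosolic class, the enzymes of the multisynthetase complex had median differences close to those of the others. The 8 complex enzymes had median sort differences of 0.59 in SFRP5 and 1.09 in WT, and the 12 outside it had 0.62 in SFRP5 and 1.13 in WT. The scaffold proteins were at least 2-fold higher in CLP in 0 of 3 in SFRP5 (11.5% of all genes) and in 3 of 3 in WT (17.8%). Aimp1 had 1.96 in SFRP5 CLP and 2.57 in WT CLP, against 2.36 in SFRP5 LSK and 1.21 in WT LSK, so its sort difference was -0.40 in SFRP5 and 1.36 in WT. Aimp2 had 0.71 in SFRP5 CLP and 1.31 in WT CLP, against -0.00 in SFRP5 LSK and -0.33 in WT LSK. Eef1e1 had 1.82 in SFRP5 CLP and 2.33 in WT CLP, against 1.24 in SFRP5 LSK and 0.51 in WT LSK. Unlike Aimp1, Aimp2 and Eef1e1 were higher in CLP in SFRP5 too.

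Cytosolic genes were also split by the element shown above. The 5 with a match had median sort differences of 0.65 in SFRP5 and 0.86 in WT, and the 8 with a promoter and no match had 0.51 and 1.27 in the same order. A list of 13 cytosolic enzymes described as ATF4-responsive gave 0.63 in SFRP5 and 0.93 in WT, against 0.59 in SFRP5 and 1.27 in WT for the other 7. In WT the genes with a match, and those of the ATF4-responsive list, had the lower median. In SFRP5 the medians of each split lay within 0.167 log2 of each other, the spread between 2 replicate spots, so no direction is read there. Asns, asparagine synthetase, which carries the same kind of element, was much higher in CLP, at 3.75 in SFRP5 CLP and 4.14 in WT CLP, against -0.11 in SFRP5 LSK and 0.33 in WT LSK. Atf4 itself stood at 6.34 in SFRP5 CLP and 6.34 in WT CLP, against 5.88 in SFRP5 LSK and 5.46 in WT LSK. Among 10 listed genes of the amino acid response, 3 of 9 measured were at least 2-fold higher in CLP in each genotype (11.5% of all genes in SFRP5 and 17.8% in WT). Only Asns was among the 3 in both genotypes. At least 2-fold lower were 2 in SFRP5 (11.0%) and 1 in WT (14.3%). The lowest were Sesn2 in SFRP5 (-2.02) and Trib3 in WT (-2.64). Each had the opposite sign in the other genotype, at 1.53 for Sesn2 in WT and 2.89 for Trib3 in SFRP5. Trib3 was dim on an array of each difference, at -4.26 in SFRP5 LSK and -3.62 in WT CLP. Replicate spots that dim had a median SD of 0.449 in SFRP5 LSK and 0.384 in WT CLP.

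Synthetases fall into a pair of catalytic classes with unrelated folds. In SFRP5 mice the 7 mitochondrial enzymes of class II were lower in CLP in 7 of 7, with a median of -0.49, against 4 of 9 and a median of 0.08 for the 9 of class I. In WT mice the medians were 0.52 for class II and 0.65 for class I, with 5 of 7 and 7 of 9 higher in CLP. Over all genes measured 51.5% were higher in CLP in SFRP5 and 50.6% in WT. The class I count in SFRP5 was near that share. Cytosolic class II had medians of 0.62 in SFRP5 and 1.35 in WT, and cytosolic class I had 0.59 and 0.91. The 4 listed partners of mitochondrial charging (the amidotransferase subunits Qrsl1, Gatc and the gene listed as Pet112l, and Mtfmt, which formylates the initiator) were higher in CLP in 4 of 4 in both genotypes (36.1% of all genes), with medians of 0.71 in SFRP5 and 0.89 in WT. Mtfmt differed by 1.77 in SFRP5 and 1.03 in WT.

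Markers of other cells and of division differed between the sorts as well, and their part in these differences was not tested. The 5 erythroid markers were above background on all arrays, and their summed signal, in multiples of the array's 75th percentile, was 108 in SFRP5 CLP and 182 in WT CLP, against 11.2 in SFRP5 LSK and 10.9 in WT LSK. The 4 proliferation genes were above background on all arrays too and summed to 82.3 in SFRP5 CLP and 71.9 in WT CLP, against 34.2 in SFRP5 LSK and 30.5 in WT LSK. The 4 basophil and mast cell markers, of which 2 were above background in SFRP5 LSK and 3 in WT LSK, summed to 36.1 in SFRP5 CLP and 52.1 in WT CLP, against 1.29 in SFRP5 LSK and 1.26 in WT LSK. The 4 neutrophil and monocyte markers, above background on all arrays, summed to 242 in SFRP5 CLP and 208 in WT CLP, against 71.5 in SFRP5 LSK and 51.9 in WT LSK. That sum does not describe each marker. In SFRP5, 2 of the 4 were lower in CLP (Ngp the lowest, at -1.01), and in WT 1 was (Csf1r, at -0.09). Not every list was higher in CLP. The plasmacytoid dendritic sum was 35.7 in SFRP5 CLP and 40.4 in WT CLP, against 38.0 in SFRP5 LSK and 38.5 in WT LSK. The T cell sum was 2.3 in SFRP5 CLP and 2.6 in WT CLP, against 3.95 in SFRP5 LSK and 5.36 in WT LSK. The stem cell sum, partly from markers below background, was 1.49 and 0.177 in SFRP5 CLP and WT CLP, against 30.1 and 34.1 in LSK. In these sorted populations, fewer cells of a type and less RNA per cell cannot be told apart.

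A limma fit of sort and genotype over the 4 arrays, which leaves 1 residual degree of freedom and takes the genotype-by-sort difference as error, called 0 of 20 cytosolic and 0 of 16 mitochondrial genes for sort at an adjusted p under 0.05, against 4.74% of 17418 genes tested. Its lowest adjusted p was 0.07, for Cars, with a sort difference of 1.73 ± 0.36 (SE), followed by Hars at 0.073 (1.90 ± 0.41) and Farsb at 0.093 (1.52 ± 0.36). At an unadjusted p under 0.05 it held 7 cytosolic genes (Cars, Farsb, Gars, Hars, Iars, Mars and Rars, each higher in CLP). Of all genes 22.9% were at that level, made up of 12.4% higher and 10.5% lower. The mitochondrial genes at that level were 2: Rars2 was higher (1.28 ± 0.36, adjusted p = 0.13) and Nars2 lower (-1.47 ± 0.47, adjusted p = 0.16). The count of calls depended on the genes tested and on background correction, with 4 cytosolic calls (Cars, Farsb, Hars and Mars) among genes above background on all arrays, where 11.1% of all genes were called, 6 with normexp, where 13.6% were, and 2 (Cars and Hars) with sort as the single term, where 4.92% were.

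Between the genotypes, the classes differed less with the scaling used, with class medians 0.31 apart in CLP and less in LSK. Over the alternative settings the CLP gap ran from 0.30 to 0.39. That exceeded the gap between the sorts in WT with quantile normalization (0.10) and with cyclic loess (0.16). In LSK cells the SFRP5 array was above the WT array for 15 of 20 cytosolic genes, with a median of 0.39, and for 10 of 16 mitochondrial genes, with a median of 0.25. The median was 0.02 over all genes measured and 0.18 over the bright ones, and 51.4% of all genes had a positive difference. Among cytosolic genes 2 passed 2-fold upward (6.57% of all genes) and 0 downward (7.17%). Among mitochondrial genes 1 passed it upward and 2 downward. Some marker lists were also higher in SFRP5 LSK than in WT LSK. For neutrophils and monocytes 3 of 4 were (median 1.27, from -0.05 for Csf1r to 3.84 for Ngp), and for proliferation 4 of 4 (median 0.35). Other lists differed in direction. Lymphoid and B markers were higher in 3 of 4 measured and plasmacytoid dendritic ones in 2 of 3. Erythroid markers were higher in 2 of 5, T cell ones in 0 of 2 and stem cell ones in 0 of 3 measured. The part of such cells and of division was not tested. The LSK gap between the class medians was 0.14 and turned to -0.15 with quantile normalization and to -0.16 with cyclic loess.

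Aars was the highest cytosolic gene in LSK, 2.15-fold higher in SFRP5, and Yars followed with a difference of 1.03 from its dim probe. With normexp neither passed 2-fold, at 0.97 for Aars and 0.28 for Yars. Wars was the lowest (-0.51), but its further probe gave 0.63. Fars2, the mitochondrial phenylalanyl enzyme, stood at 2.27 in SFRP5 LSK and 1.20 in WT LSK (1.07), and at 2.05 in SFRP5 CLP and 1.98 in WT CLP (0.06). The WT LSK array was thus the low one of the 4, and the LSK difference was 0.94 with the authors' Signal values. Aars2 came just under 2-fold in LSK. Nars2 was lower in SFRP5 LSK than in WT LSK, with a difference of -1.28 (-0.67 with normexp), and differed by 0.10 in CLP.

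Ears2, the mitochondrial glutamyl enzyme, was the 1 member at least 2-fold different between the genotypes in both sorts. It stood at -3.74 in SFRP5 CLP and -2.14 in WT CLP, and at -3.82 in SFRP5 LSK and -1.99 in WT LSK, which was 3.03-fold lower in SFRP5 in CLP and 3.54-fold lower in LSK. With normexp the sizes were under 2-fold in both sorts, at 1.72-fold in CLP and 1.62-fold in LSK. Both SFRP5 arrays lay below both WT arrays, and the sorts differed little (0.08 in SFRP5 and -0.15 in WT). Its genotype difference in the limma fit was -1.71 ± 0.37 (SE; unadjusted p = 0.0051, adjusted p = 0.67), so it was not called. On the SFRP5 arrays its signal lay over 3 log2 units below the 75th percentile, where replicate spots of a probe had a median SD from 0.347 to 0.449. Sex-linked genes separated the same arrays, and their part was not tested.

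In CLP cells the SFRP5 array was above the WT array for 9 of 20 cytosolic genes, with a median of -0.09 (0.01 with the authors' Signal values), and for 6 of 16 mitochondrial genes, with a median of -0.40. The median was -0.04 over all genes measured, of which 46.6% had a positive difference. With the probes used, no cytosolic gene passed 2-fold in either direction, against 8.56% of all genes. The range ran from -0.85 for Dars to 0.53 for Yars. The further probes of Farsa gave -0.82 and 1.04, where the probe used gave 0.02, and the further probe of Wars gave 0.79. Among mitochondrial genes 3 were at least 2-fold lower (Ears2, Sars2 and Tars2; 4.31% of all genes) and 1 at least 2-fold higher (Wars2; 4.25%). Sars2 was 2.39-fold lower in SFRP5 CLP than in WT CLP, and Tars2 differed by -1.17, though its further probe gave -0.23 there, and 1.29 in LSK where the probe used gave 0.29. Wars2, the mitochondrial tryptophanyl enzyme, stood at -1.95 in SFRP5 CLP and -3.12 in WT CLP, and at -2.64 in SFRP5 LSK and -2.85 in WT LSK. With normexp its CLP difference was 0.46, and its further probe, not well above background in WT CLP, gave -0.40 in LSK. The erythroid markers were lower in SFRP5 CLP than in WT CLP in 5 of 5 (from -0.59 to -0.86), and the part of such cells in these differences was not tested.

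The genotype difference was lower in CLP than in LSK for 16 of 20 cytosolic genes, with a median gap of -0.37, and for 12 of 16 mitochondrial genes, with a median gap of -0.49. Over all genes above background on all arrays 52.8% were so, with a median of -0.05, and over the bright ones the median was -0.17. With SFRP5 higher in LSK and lower in CLP there were 7 cytosolic and 6 mitochondrial genes, against 29.2% of all genes. The widest gaps were -2.22 for Sars2, -1.93 for Aars2 and -1.71 for Aars, and the gap of Nars2 went the other way, at 1.38. Each gap equals the gene's sort difference in SFRP5 minus that in WT, so it restates the sort differences above. With 1 array per group the gap has no error estimate and was not tested. The limma fit called 0 of the 36 genes for genotype, against 0.00574% of genes tested, and at an unadjusted p under 0.05 it held Ears2 alone, against 5.11% of all genes, or 3.16% with a lower signal in SFRP5.

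The remaining mitochondrial genes stayed within 2-fold in every comparison: Cars2, Hars2, Lars2, Mars2, Pars2, Vars2 and Yars2. Hars2 was the brightest of these against its array, at 3.95 in SFRP5 CLP and 3.80 in WT CLP, against 4.10 in SFRP5 LSK and 4.16 in WT LSK, and its 4 values lay close together. Cars2, the mitochondrial cysteinyl enzyme, differed by -0.87 between the genotypes in CLP, and its further probe gave -1.01. Pars2, the mitochondrial prolyl enzyme, differed by at most 0.32 in size in the 4 comparisons, but its further probe gave -0.81 for genotype in CLP. Of the 8 further probes above background on all arrays, the sign matched that of the probe used in 5 for genotype in LSK, in 4 for genotype in CLP, in 4 between the sorts in SFRP5 and in 5 in WT, so for genes with several probes the sign often depended on the probe.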

How the data were processed

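RNA of the 4 samples was hybridised to 4 arrays on 1 slide in 1 colour, after amplification of the cDNA per the labels' protocols, so the groups cannot be told apart from the position of their array. Spot intensity was deposited as the scanner software gave it, corrected for background, beside background and outlier flags. The software was Agilent Feature Extraction, version 10.10.1.1 in the file headers and 10.10 in the submitters' processing notes. In a further deposited file, the Signal table, the authors had multiplied these intensities by a constant for each array, between 4.91 and 6.42. Probes are annotated on mm9 per the file headers, and symbols are those of the files.

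The log2 of the processed intensity was taken minus the 75th percentile of each array, outlier-flagged spots (from 128 to 160 per array) were dropped, no spot was saturated, and spots of a probe were averaged. Of 55681 probes, 33321 carried a symbol and were used. The brightest probe over the 4 arrays stood for a gene. A gene was measured when well above background on both arrays, and a difference was counted at 2-fold. Replicate spots had median log2 SDs between 0.059 and 0.071 for signals over the percentile, and between 0.106 and 0.118 for signals up to 3 units below. They cover neither cells, mice nor amplification. The limma fit (3.58.1, R 4.3.3; data.table, version 1.17.8) used genes above background on at least 2 of 4 arrays with Benjamini-Hochberg adjustment, and was tested on simulated data. Counts and promoter matches were made in Python 3.11.15 (numpy 2.4.6, pandas 2.3.3).

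The alternatives were the authors' Signal table, quantile normalization, cyclic loess, normexp with an offset of 50, the mean of probes, other background filters, 1.5-fold, a fit with 1 term alone and the class without Gars and Kars. Normexp used the median spot signal, because the files hold no mean spot signal. Every member is accounted for. Array values are given for members at 2-fold and for the highest and lowest of each class, and from other lists the highest and lowest member and the 3 scaffold proteins may be named. Atf4, Eef2, Sfrp5 and the sex-linked genes stand outside that rule and were chosen with their values known. The members and lists were chosen with earlier results of these data known. Promoters came from RefSeq (GRCm38.p6), matched by gene ID.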

Additional observations from a re-analysis of the deposited data

Results flagged for a closer look

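Values are set out here where the genotype difference had opposite signs in the sorts, with a size of at least 0.5 in each for a single gene. The difference between the sorts was not tested in any of them, since each group is 1 array. Aars differed by 1.1 in LSK and by -0.61 in CLP. Dars differed by 0.54 in LSK and by -0.85 in CLP. Aars2 differed by 1.0 in LSK and by -0.93 in CLP. Iars2 differed by 0.82 in LSK and by -0.69 in CLP, but its further probe gave -0.37 in LSK and -0.97 in CLP, so the opposite signs were seen with 1 of its probes. Sars2 differed by 0.96 in LSK and by -1.26 in CLP. The class medians had opposite signs for the mitochondrial enzymes, at 0.25 in LSK and -0.40 in CLP. For the cytosolic enzymes they were 0.39 in LSK and -0.09 in CLP, but the CLP value ran from -0.09 to 0.01 over the alternative settings and, minus the median of all genes, from -0.09 to 0.07, so its sign did not hold. The scaffold protein Aimp1 showed the same order, with 1.15 in LSK and -0.61 in CLP.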

How the results depend on the processing

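Of the recomputed values that the alternative could change, 142 stayed within 0.167 log2 (medians; the spread between 2 replicate spots, wide for a class median) or within 1.5 times (counts), and 34 moved beyond it. The filters on dim probes are not counted for medians and 2-fold counts, since all members were above background. Many of the 142 were counts of 0 that stayed 0, such as all limma calls for genotype. For those the tally says little about stability. The cytosolic genotype median in CLP turned sign, to 0.01 with the authors' table. Where values moved, the cause was not tested unless the setting itself gives it. No paired analysis was possible because each group has 1 array and the labels give no shared number of an animal. Between the sorts, the cytosolic median in SFRP5 was 0.42 with the authors' Signal table, 0.36 with quantile normalization and 0.42 with cyclic loess, and in WT 0.71, 0.70 and 0.72 with the same settings. The mitochondrial median between the sorts was -0.39 in SFRP5 and 0.17 in WT with the authors' table, and 0.38 in WT with normexp. For genotype in LSK it was 0.44 with quantile normalization. The authors' table shifted the median of all genes by -0.41 between the sorts in WT, -0.19 in SFRP5 and -0.13 for genotype in LSK. The limma fit called 6 cytosolic genes and 1 mitochondrial gene for sort with normexp (13.6% of all genes), 4 cytosolic genes among genes above background on all arrays (11.1%) and 2 with sort as the single term. At 1.5-fold, which lowers the bar, 11 cytosolic and 3 mitochondrial genes were higher in CLP in SFRP5 (22.6% of all genes) and 18 and 8 in WT (29.6%), while 4 mitochondrial genes were lower in CLP in SFRP5 (19.1%). For genotype at 1.5-fold, 6 cytosolic and 4 mitochondrial genes were higher in SFRP5 LSK (16.9%), and 3 cytosolic and 6 mitochondrial genes were lower in SFRP5 CLP (12.8%). Counts at 2-fold fell to 0 for cytosolic and mitochondrial genes higher in SFRP5 LSK with the authors' table, and for the cytosolic ones with normexp too. With normexp, 0 mitochondrial genes were higher in CLP in SFRP5, 0 higher in SFRP5 CLP, 0 lower in CLP in WT and 0 lower in SFRP5 LSK. In WT, 0 mitochondrial genes were higher in CLP with the authors' Signal values. Of 144 differences of single members, 25 turned sign under at least 1 setting, and 22 without the authors' table, which moves all genes of an array alike. Of 31 differences at 2-fold, 17 were under it in at least 1 setting. Signal over background limits the dim members. Quantile normalization gave 2 mitochondrial genes higher in SFRP5 LSK, cyclic loess gave 1 lower there, and the mean of probes gave 2 lower in CLP in WT.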

Other observations

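Other genes of translation were measured on the same arrays. The 5 listed cytosolic elongation genes were higher in CLP than in LSK in 5 of 5 in both genotypes (36.1% of all genes), with median differences of 0.26 in SFRP5 and 0.90 in WT. Between the genotypes they were higher in SFRP5 in 5 of 5 in LSK, with a median of 0.32, and lower in 5 of 5 in CLP, with a median of -0.39, where 29.2% of all genes showed this order. Eef2, the factor that moves the ribosome along the message, stood at 5.49 in SFRP5 CLP and 5.88 in WT CLP, against 5.39 in SFRP5 LSK and 4.97 in WT LSK. Of 10 mitochondrial translation factors, 7 of 9 measured were higher in CLP in SFRP5 (51.5% of all genes) and 7 of 10 in WT (50.6%), with medians of 0.43 and 0.57, and Gfm1, the mitochondrial elongation factor, was the highest in SFRP5 at 1.27. Among 6 listed growth regulators, Mycn was the lowest between the sorts, with differences of -4.03 in SFRP5 and -4.74 in WT. Among 9 measured genes of the amino acid response, the extremes between the genotypes were Trib3, with -3.28 in LSK and 2.25 in CLP, and Sesn2, with 1.65 in LSK and -1.90 in CLP. Both Trib3 differences rest on a dim array, SFRP5 LSK (-4.26) or WT CLP (-3.62). The list's medians were 0.33 in LSK and -0.14 in CLP, so the extremes do not describe the list.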
